A study of Mus musculus with 9 samples.

Results

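Doxycycline (dox) switches on a RUNX2 lentivirus in these cells, and the question here was which genes moved with dox whether or not oestradiol (E2) was present. The 4 arrays of dox-treated cells were set against the 5 arrays of cells without dox, so all 9 arrays of the series entered the comparison. Of 9490 genes tested, 10 rose with dox (0.105% of genes) and 1 fell (0.0105%). Those that rose were the granzyme genes Gzmd and Gzme, the osteoblast genes Sp7, Bglap2 and Alpl, the adaptor gene Pacsin1, the kinase gene Dapk2, the cell cycle regulator Rgcc, and the secreted-protein genes Serping1 and Olfml3. The gene that fell was Invs.

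All cells were primary osteoblasts grown from the calvaria, the flat bones of the skull roof, of newborn mice, and all were transduced with the dox-inducible RUNX2 virus, those without dox included. The dox arrays were 2 of cells given dox at 500 ng/ml (slide 1) and 2 of cells given dox at 500 ng/ml plus E2 at 10 nM (slide 2), for 48 h in charcoal-stripped serum. The no-dox arrays were 2 of vehicle-treated cells (slide 1) and 3 of cells given E2 at 10 nM without dox (slide 2). Because every sample carried the virus, an effect of dox itself and an effect of RUNX2 cannot be told apart. Within each slide the no-dox arrays held positions A to C and the dox arrays positions E to G, so dox and array position cannot be told apart either. The promoter of the virus and the share of cells it reached are not given in the sources used here. Whether replicates were separate cultures is not stated, so the p-values reflect only how far these samples differed, and that spread may be technical.

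RUNX2 is a transcription factor that bone-forming cells need for their identity. It binds DNA together with its partner CBFB at short sites built around the letters TGTGGT or TGCGGT, and in osteoblasts it is known to act upstream of Sp7 (osterix), of the osteocalcin genes and of genes for mineralising matrix. Oestradiol is a steroid hormone that limits bone loss.

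Between 11554 and 12206 of 25697 probes were above background on each array. Replicate arrays correlated at 0.992 to 0.995 over the 9490 genes tested, and shared 0 identical deposited signals over all probes. Levels are given on the log2 scale after background correction and quantile normalisation. Changes are log2 differences, dox minus no dox, with slide as a block, given ± standard error (SE) from limma, and a gene passed at a Benjamini-Hochberg adjusted p under 0.05 over all genes. Array values are listed in the order dox replicates 1 and 2 and dox plus E2 replicates 2 and 3, against vehicle replicates 1 and 2 and E2 replicates 1, 2 and 3. Among 12 osteoblast markers, 7 were above background on all 9 arrays, and Runx2 and Ibsp were below it on all 9. The number of arrays limits the precision of every value.

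The RUNX family and its partner were read first. Neither of the 2 Runx2 probes exceeded background on any array (lowest detection p-value 0.294 for one and 0.368 for the other), so they gave no reading of the virus or of the cells' own gene. The Runx3 probe was below background on all 9 arrays too. Runx1, a relative best known from blood formation, changed by -0.06 ± 0.13 (adjusted p = 0.977). Cbfb, the shared DNA-binding partner, changed by 0.03 ± 0.06 (adjusted p = 0.972). Its 95% interval ran from -0.10 to 0.16, and on neither slide were its dox arrays all above or all below the others.

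Sp7 (probe ILMN_2733114, chromosome 15), which encodes the osteoblast transcription factor osterix, had levels of 9.16, 9.14, 9.45 and 9.50 on the dox arrays, against 8.55, 8.48, 8.78, 8.61 and 8.88 on the no-dox arrays. Every dox array lay above every no-dox array. Sp7 rose 1.61-fold (0.68 ± 0.08, adjusted p = 2.64e-05), by 0.64 on slide 1 and 0.72 on slide 2. In bulk RNA, more osteoblasts in the culture and more RNA per osteoblast cannot be told apart, here and for every gene that follows.

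Alpl (probe ILMN_2661287, chromosome 4), the alkaline phosphatase of mineralising cells, had levels of 7.91, 7.94, 8.15 and 8.22 on the dox arrays, against 7.42, 7.07, 7.08, 6.95 and 7.54 on the no-dox arrays. The groups did not overlap, and E2 replicate 3 was the highest of the no-dox arrays. Alpl rose 1.80-fold (0.85 ± 0.13, adjusted p = 0.000727). Bglap2 (probe ILMN_2944508, chromosome 3), an osteocalcin gene, had 6.36, 6.62, 6.75 and 6.45 on the dox arrays, against 5.07, 5.37, 5.04, 5.17 and 5.11 on the no-dox arrays. It was above background on 4 of 4 dox arrays and on 0 of 5 no-dox arrays. A probe had to be above background on 2 or more arrays, so it entered the test only through the dox arrays. Its fitted change used no-dox values below background (adjusted p = 3.78e-05), and the rise was at least 1.85-fold. This bound sets the dox mean against the mean of the lowest signals called above background on the no-dox arrays, or of the probe's own signals where those were higher.

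Bglap (probe ILMN_2610166, chromosome 3), the neighbouring osteocalcin gene, did not pass (adjusted p = 0.0595). Its data give neither a size nor a lower bound, because some arrays of both groups were below background. Its levels were 5.45, 6.02, 5.86 and 5.52 on the dox arrays, against 4.81, 4.84, 4.70, 4.62 and 4.70 on the no-dox arrays, apart on both slides. Only 2 of the 4 dox arrays and 0 of the 5 no-dox arrays were above background, so the fitted change of 0.97 ± 0.21 is not a measured size. Its 2 other probes gave 0.47, above background on 1 array, and -0.15, above background on 0 arrays. The osteocalcin genes are near-identical copies, and the sources used here do not say which of them each probe reads.

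Other named bone genes did not pass. Spp1, which encodes osteopontin, was among the brightest signals at 14.09, 14.04, 14.09 and 13.82 on the dox arrays, against 13.84, 14.04, 14.14, 14.06 and 13.92 on the no-dox arrays. Its change was 0.01 ± 0.06 (adjusted p = 0.992), and the groups overlapped on both slides. Mmp13, a collagenase of bone and cartilage, had a pooled change of 0.28 ± 0.09 (adjusted p = 0.653) made of 0.05 on slide 1 and 0.47 on slide 2. The difference between the slides had an unadjusted p of 0.0217 and an adjusted p of 0.680. Both Ibsp probes, for bone sialoprotein, were below background on all 9 arrays. Twist1, a transcription factor of immature mesenchyme, had -0.21 ± 0.07 (adjusted p = 0.720), with -0.23 on slide 1 and -0.19 on slide 2.

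Gzmd (probe ILMN_2987649, chromosome 14) encodes a granzyme, a serine protease of the granules of cytotoxic lymphocytes. It had the lowest p of all genes. Its levels were 8.76, 8.63, 8.85 and 8.83 on the dox arrays, against 7.21, 6.99, 6.97, 7.25 and 6.85 on the no-dox arrays. The gap between the groups was wider than the spread within either, and Gzmd rose 3.28-fold (1.72 ± 0.11, adjusted p = 1.42e-10). Gzme (probe ILMN_2642942, chromosome 14), a related granzyme gene, had 7.0, 7.46, 7.58 and 7.41 on the dox arrays, against 6.41, 5.84, 6.12, 6.48 and 6.11 on the no-dox arrays. It rose 2.28-fold (1.19 ± 0.15, adjusted p = 5.49e-05). Both genes were higher with dox on each slide, by 1.59 and 1.82 for Gzmd and by 1.10 and 1.26 for Gzme on slides 1 and 2.

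These genes share sequence, so a probe for one may read the other. A second Gzmd probe was above background on 6 arrays with a change of 0.58, and a second Gzme probe was above it on 0 arrays. None of the probes for 5 other granzymes, Gzmb, Gzmc, Gzmf, Gzmg and Gzmk, exceeded background on any array. Gzmn had -0.28 ± 0.20 (adjusted p = 0.897) and was above background on 2 no-dox arrays. Of 20 granzyme and cytotoxic lymphocyte genes listed, 5 could be tested. Gzmd and Gzme were the 2 that passed, against 0.105% of all genes that rose. Of 11 lymphocyte markers on the array, 8 were below background on all 9 arrays, among them Cd3e, Cd3g, Cd4, Cd8a and Nkg7. The summed linear signal of the lymphocyte markers was 645 to 822 on the dox arrays and 558 to 679 on the no-dox arrays. Prf1, the pore-forming perforin, had 0.32 ± 0.11 (adjusted p = 0.677). The part of these markers in the granzyme result was not tested.

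A further group of genes that rose acts inside the cell. Pacsin1 (probe ILMN_2644415, chromosome 17), an adaptor that bends membranes in endocytosis and is best known from neurons, had 6.89, 6.97, 6.72 and 6.74 on the dox arrays, against 5.22, 5.19, 4.83, 4.95 and 4.94 on the no-dox arrays. It was above background on 4 of 4 dox arrays and 0 of 5 no-dox arrays, so it entered the test only through the dox arrays. Its fitted change used no-dox values below background (adjusted p = 2.22e-07), and the rise was at least 2.25-fold. This p belongs to the fitted change and not to the bound. The other 2 Pacsin1 probes gave -0.01, above background on 2 arrays, and -0.03, above it on 0 arrays. So the rise rests on 1 probe of 3, and the sources used here do not say which transcripts each probe reads.

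Dapk2 (probe ILMN_2977558, chromosome 9), a calmodulin-regulated kinase of the death-associated family, had 7.62, 7.85, 8.13 and 7.81 on the dox arrays, against 6.10, 6.59, 6.95, 7.0 and 6.95 on the no-dox arrays. It rose 2.26-fold (1.18 ± 0.13, adjusted p = 1.03e-05). A second Dapk2 probe was above background on 0 arrays, so the rise rests on 1 of 2 probes. The lowest no-dox value was vehicle replicate 1. The change was 1.39 on slide 1 and 1.00 on slide 2, a difference with an unadjusted p of 0.153. Rgcc (probe ILMN_2593774, chromosome 14), which encodes a regulator of the cell cycle that responds to complement, had 8.35, 8.47, 8.38 and 8.44 on the dox arrays, against 7.85, 7.69, 7.67, 8.0 and 7.97 on the no-dox arrays. The 4 dox values lay close together, and Rgcc rose 1.49-fold (0.58 ± 0.10, adjusted p = 0.00723). Without vehicle replicate 2 its adjusted p was 0.0795, and without dox plus E2 replicate 3 it was 0.0753.

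The remaining genes that rose encode secreted proteins. Serping1 (probe ILMN_2913166, chromosome 2), the C1 inhibitor that restrains complement and the kallikrein system, had 7.86, 8.14, 7.94 and 8.02 on the dox arrays, against 7.38, 7.57, 7.39, 7.32 and 7.56 on the no-dox arrays. It rose 1.46-fold (0.54 ± 0.11, adjusted p = 0.0376). Olfml3 (probe ILMN_1233455, chromosome 3), a secreted olfactomedin-like glycoprotein, had 9.55, 9.56, 9.48 and 9.39 on the dox arrays, against 9.11, 9.20, 9.14, 9.0 and 9.02 on the no-dox arrays. Neither gene's groups overlapped. Olfml3 had the smallest rise, 1.31-fold (0.39 ± 0.08, adjusted p = 0.0240), and it was 0.40 on slide 1 and 0.38 on slide 2. With 1 array left out at a time, Serping1 lost its call for 7 of the 9 arrays (adjusted p = 0.0507 to 0.319) and Olfml3 for 8 of the 9 (adjusted p = 0.0577 to 0.182).

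Invs (probe ILMN_2664069, chromosome 4) encodes inversin, a protein of the primary cilium that acts in left-right patterning and in the kidney. It had 5.23, 4.94, 5.43 and 5.22 on the dox arrays, against 6.13, 6.47, 5.98, 6.01 and 5.96 on the no-dox arrays. All 4 dox arrays were below background and all 5 no-dox arrays were above it. Invs thus entered the test only through the no-dox arrays, and its fitted change used dox values below background (adjusted p = 0.0358). Invs was at least 1.36-fold lower with dox, and a second Invs probe was above background on 0 arrays. The call was lost without any 1 of 7 arrays (adjusted p = 0.0629 to 0.300). Of 23 cilium and planar polarity genes tested, Invs alone passed, against 0.0105% of all genes that fell. Negative changes were found for 15 of the 23, against 51.5% of all genes, and the list's median was -0.03.

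**Figure D1:**
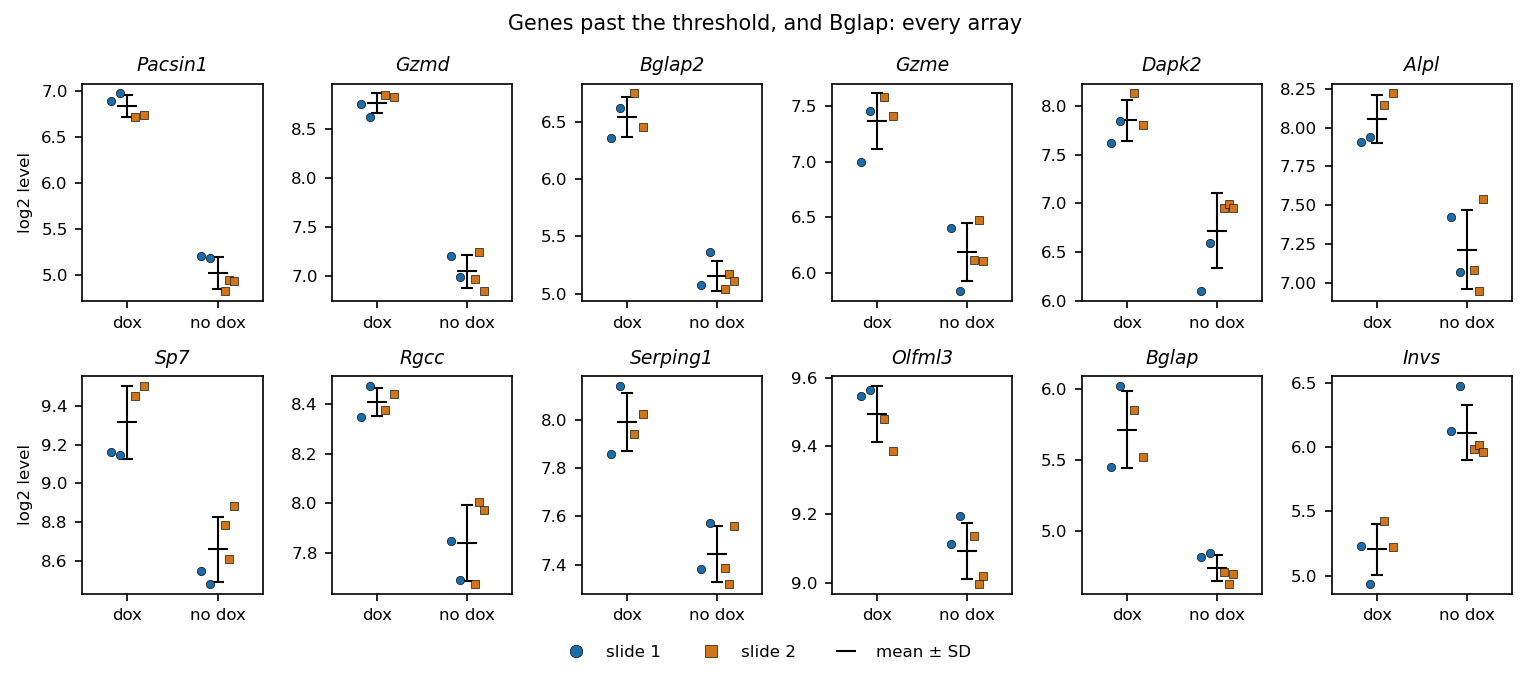
Log2 level (vertical axis, a separate scale per panel) of the 11 genes past the threshold and of Bglap on every array, with dox arrays left and no-dox arrays right, circles for slide 1, squares for slide 2, and bars for the mean ± SD. Dox arrays lie above no-dox arrays in every panel except Invs, where they lie below.

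Promoter windows of Gzmd, Gzme and Pacsin1 are shown because these genes passed the threshold and their windows hold core letters of a RUNX site. That of Bglap, which did not pass and is not among the 8 genes counted next, is shown for the same letters. Windows from RefSeq on the build GRCm38.p6 covered 250 bases before to 50 after a gene start, and 8 of the 11 genes past the threshold had one. Capitals mark TGTGGT or, on the other strand, ACCACA. Windows run 5′ to 3′ on the strand of the gene.
Gzmd (chr14:56132544-56132843, minus strand): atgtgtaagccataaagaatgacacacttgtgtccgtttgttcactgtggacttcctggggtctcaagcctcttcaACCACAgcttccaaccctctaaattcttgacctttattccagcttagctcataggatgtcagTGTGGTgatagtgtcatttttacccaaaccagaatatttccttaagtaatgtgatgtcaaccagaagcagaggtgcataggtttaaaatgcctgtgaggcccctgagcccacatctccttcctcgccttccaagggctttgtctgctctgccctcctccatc
Gzme (chr14:56120576-56120875, minus strand): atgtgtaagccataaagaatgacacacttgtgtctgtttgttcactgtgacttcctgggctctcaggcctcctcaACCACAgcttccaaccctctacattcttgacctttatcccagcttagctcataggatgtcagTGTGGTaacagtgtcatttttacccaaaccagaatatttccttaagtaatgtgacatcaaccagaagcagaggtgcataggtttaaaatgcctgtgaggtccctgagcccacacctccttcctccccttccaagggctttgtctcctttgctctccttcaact
Pacsin1 (chr17:27684989-27685288, plus strand): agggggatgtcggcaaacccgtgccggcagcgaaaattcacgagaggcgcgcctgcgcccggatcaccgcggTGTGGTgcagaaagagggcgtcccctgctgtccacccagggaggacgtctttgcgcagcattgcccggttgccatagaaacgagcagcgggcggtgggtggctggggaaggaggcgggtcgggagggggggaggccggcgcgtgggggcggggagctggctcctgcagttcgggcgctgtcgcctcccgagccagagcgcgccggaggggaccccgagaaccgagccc
Bglap (chr3:88384417-88384716, minus strand): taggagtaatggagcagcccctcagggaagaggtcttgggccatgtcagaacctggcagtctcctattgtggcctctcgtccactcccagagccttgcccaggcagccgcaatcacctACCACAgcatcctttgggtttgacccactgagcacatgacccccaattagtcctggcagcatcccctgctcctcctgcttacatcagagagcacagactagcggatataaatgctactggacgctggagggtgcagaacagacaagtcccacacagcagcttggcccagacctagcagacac

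Gzmd and Gzme each held the letters at 2 places, -174 to -169 and -112 to -107 from the start of Gzmd, and -175 to -170 and -113 to -108 from that of Gzme. Their windows were 93.4% identical over 301 aligned positions, so the matches are not independent. Pacsin1 held TGTGGT at -178 to -173, and Bglap held ACCACA at -132 to -127. In all, 3 of the 8 genes with a window held TGTGGT on either strand, and these 8 genes had 9 windows. The shares set beside them count windows and not genes. TGTGGT was held by 16.8% of all 32851 RefSeq windows and 12.6% of the 9474 windows of tested genes. The related TGCGGT was found in 1 of the 8 genes, Rgcc, at -157 to -152, against 6.45% of all windows. The 2 motifs differ in a letter, so no place counts for both. A match describes the letters of a window and not a bound site.

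The dox change was then compared between the slides, which differ in E2 as well. Slide and E2 cannot be told apart, so a difference between slides could be either. For the difference 0 of 9490 genes passed in limma (0%), where the lowest adjusted p was 0.531. Unadjusted, 652 genes were under 0.05 (6.87%). For the 11 genes past the threshold, the unadjusted p for a difference ran from 0.139 for Invs to 0.898 for Olfml3. Intervals of the difference stayed wide, from -0.23 to 0.69 for Gzmd and from -0.19 to 1.30 for Invs. A p that misses the threshold does not show that the slides acted alike.

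Over all genes the sign of the change matched between the slides for 4706 of 9490 genes (49.6%). The median pooled change was -0.0036, and the median SE of a gene's change was 0.097. At an unadjusted p under 0.05, 273 genes were higher with dox (2.88%) and 282 lower (2.97%), 555 in all (5.85%). At an adjusted p under 0.10 the counts were 11 higher (0.116%) and 2 lower (0.0211%), which adds Bglap and Unc5b. Within each of the 2 slides, every dox array lay above every no-dox array of that slide for 177 genes (1.87%) and below for 166 (1.75%). With 2 dox arrays per slide such separation can arise without any change, so these counts alone show none. The 10 genes that rose are among the 177 and Invs is among the 166.

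**Figure D2:**
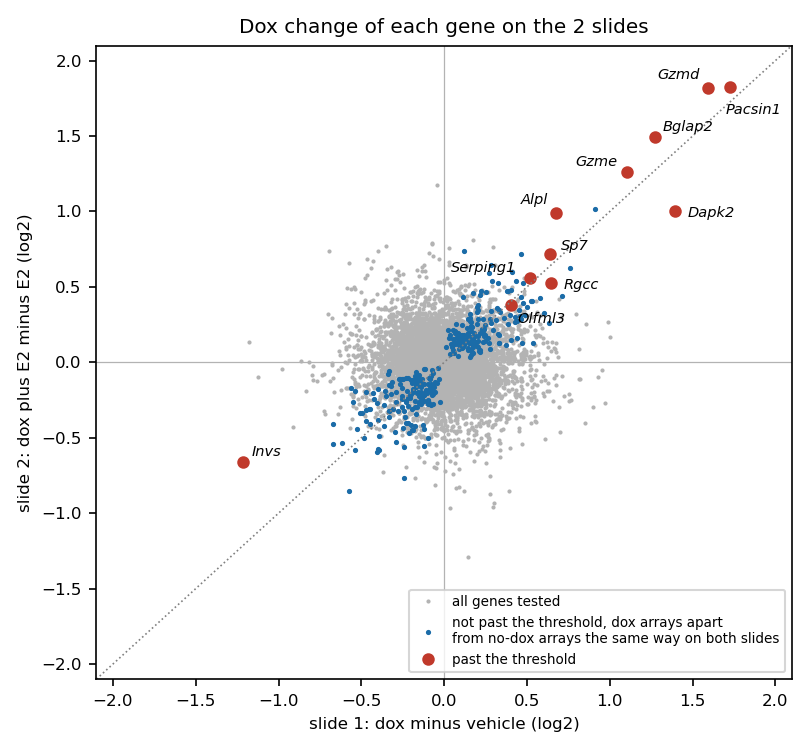
Log2 dox change of each of the 9490 genes on slide 1 (dox minus vehicle, horizontal) and on slide 2 (dox plus E2 minus E2, vertical), with the dotted line at equality. Genes past the threshold (red) have the same sign on both slides, with Gzmd at 1.59 and 1.82, while most genes form a cloud around 0. Pacsin1, Bglap2 and Invs are drawn at fitted values, since 1 of their groups was below background on all its arrays.

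Below the threshold, 10 higher and 10 lower genes with the smallest p were described among those whose dox arrays stood apart the same way on both slides. None of the 20 passed, and this set was picked from the same values, so it carries no test of its own. Lrp4, a receptor that binds the bone inhibitor sclerostin, had 9.14, 9.07, 9.13 and 9.07 on the dox arrays, against 8.86, 8.84, 8.73, 8.54 and 8.64 on the no-dox arrays (0.37 ± 0.08, adjusted p = 0.119). The 4 dox values were nearly equal and the no-dox values all lower.

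The 10 higher genes included 3 for histone H2A. H2ac22 had 0.30 ± 0.07 (adjusted p = 0.113), H2ac10 had 0.27 ± 0.07 (adjusted p = 0.232) and H2ac23 had 0.22 ± 0.06 (adjusted p = 0.253). Histone H2A genes of the chromosome 13 cluster are near-identical, so the 3 probes may read each other's transcripts. Over all 43 histone genes tested, a set chosen after these values were seen, 24 were positive with a median of 0.01. That is 55.8%, against 48.5% of all genes. At an unadjusted p under 0.05, 6 were higher, all of them H2A genes, against 2.88% of all genes. Without E2 replicate 1, all 3 named H2A genes passed (H2ac22 adjusted p = 0.0309).

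The other higher genes were of several kinds. Adssl1, an enzyme of purine nucleotide synthesis best known from muscle, had 0.33 ± 0.08 (adjusted p = 0.225). Coch, which encodes the matrix protein cochlin, had 0.38 ± 0.10 (adjusted p = 0.334). M6pr, a receptor that carries enzymes to lysosomes, had 11.26, 11.14, 11.12 and 11.22 on the dox arrays, against 10.99, 10.95, 11.01, 10.88 and 10.97 on the no-dox arrays (0.22 ± 0.06, adjusted p = 0.334). Its groups did not overlap and its change was 0.23 and 0.22 on slides 1 and 2. Atp6v1g1, a subunit of the proton pump of acidic organelles, had 0.26 ± 0.07 (adjusted p = 0.286), with 0.41 on slide 1 and 0.15 on slide 2. Mrps18c, of the mitochondrial ribosome, had 0.25 on both slides (adjusted p = 0.334).

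Unc5b, a netrin receptor, came nearest to the threshold among lower genes. It had 11.99, 12.05, 12.05 and 12.04 on the dox arrays, against 12.40, 12.27, 12.11, 12.29 and 12.36 on the no-dox arrays (-0.26 ± 0.06, adjusted p = 0.0959). The dox values lay within a narrow band below all others. Pkm, the glycolytic enzyme pyruvate kinase, had 13.33, 13.38, 13.27 and 13.22 on the dox arrays, against 13.54, 13.55, 13.43, 13.40 and 13.46 on the no-dox arrays (-0.18 ± 0.05, adjusted p = 0.230). Its groups did not overlap, by -0.19 on slide 1 and -0.18 on slide 2. Igfbp5, a binding protein for insulin-like growth factors in bone matrix, had 9.68, 9.68, 9.20 and 9.59 on the dox arrays, against 9.90, 9.90, 9.76, 9.89 and 9.75 on the no-dox arrays (-0.32 ± 0.08, adjusted p = 0.232). One array, dox plus E2 replicate 2, was well below the rest.

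The ephrin receptor gene Epha1 had -0.35 ± 0.08 (adjusted p = 0.191) with -0.33 and -0.36 on slides 1 and 2. Tcf7l2, a transcription factor of the Wnt pathway, had -0.27 ± 0.07 (adjusted p = 0.338). Aebp1, a collagen-binding matrix protein, had -0.18 ± 0.05 (adjusted p = 0.334), and Akap12, a scaffold for kinase A, had -0.22 ± 0.06 (adjusted p = 0.334). The largest sizes among the lower genes came from dimmer probes. Baiap2, an adaptor of the actin cytoskeleton, had -0.73 ± 0.18 (adjusted p = 0.191) and was above background on 2 of 4 dox arrays. Cacng7, a calcium channel subunit gene, had -0.60 ± 0.16 (adjusted p = 0.334) with dox values between 5.90 and 6.76, and Slc12a9, a transporter gene, had -0.41 ± 0.11 (adjusted p = 0.365).

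**Figure D3:**
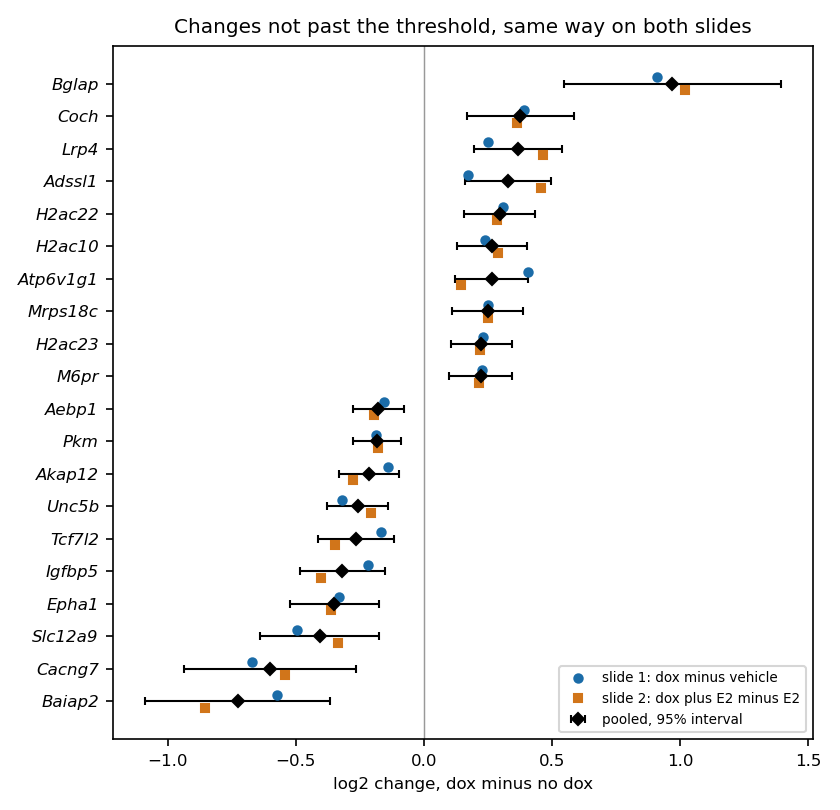
Pooled log2 change with its 95% interval (diamonds) and the change on each slide (circles for slide 1, squares for slide 2) for the 20 genes, none past the threshold, whose dox arrays stood apart the same way on both slides with the smallest p. The 10 lower genes are at -0.73 to -0.18 and 9 of the higher genes at 0.22 to 0.38. Bglap is drawn at its fitted 0.97, which is not a measured size. It was below background on all 5 no-dox arrays and on some dox arrays.

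Gene lists were described by counts, beside 48.5% positive and 51.5% negative changes over all genes. The list of reported RUNX2 targets had 14 of 25 members tested. Of these, 12 were positive (85.7%) with a median of 0.16, Bglap and Bglap2 entering at fitted values. Of the 14, 3 passed upward (Sp7, Bglap2 and Alpl), against 0.105% of all genes. The same genes and Bglap, 4 in all, stood apart upward on both slides, against 1.87% of all genes. Bglap and Bglap2 were tested only through their dox arrays. For both, the filter on dim probes therefore favoured a positive sign, a call and separation upward. The list was also chosen with earlier results of these data known, so its shares are not independent support. Both limits hold for the osteoblast matrix list below as well. Col1a2, a chain of type I collagen, had 0.14 ± 0.06 (adjusted p = 0.836), while Col1a1, the other chain, had -0.13 ± 0.04 (adjusted p = 0.707). Tnfsf11, which encodes the osteoclast-activating factor RANKL, had 0.19 ± 0.10 (adjusted p = 0.883), with 0.33 on slide 1 and 0.06 on slide 2. Col1a1 and Col1a2 thus had opposite signs. The osteoblast matrix and mineralisation list had 10 of 18 tested members positive with a median of 0.00, and its 2 that passed were Bglap2 and Alpl. Of 11 osteoblast transcription factors tested, 5 were positive and Sp7 alone passed. Over all genes 0.105% passed upward, and these 3 genes are the ones already counted among the RUNX2 targets.

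The 57 tested subunits of the respiratory chain and ATP synthase encoded in the nucleus had 46 positive changes (80.7%), with a median of 0.07. None passed (lowest adjusted p = 0.607). At an unadjusted p under 0.05, 10 were higher and 0 lower, against 2.88% and 2.97% of all genes. On both slides 5 stood apart upward, against 1.87% of all genes. The median was 0.11 on slide 1 and 0.04 on slide 2, and 30 members were positive on both slides against 3 negative on both. Cox4i1, of cytochrome c oxidase, had 14.15, 14.00, 14.22 and 14.04 on the dox arrays, against 14.00, 13.94, 13.87, 14.04 and 13.81 on the no-dox arrays (0.17 ± 0.05, adjusted p = 0.607), and the groups overlapped. Ndufs6, of complex I, had 13.27, 13.23, 13.45 and 13.33 on the dox arrays, against 13.15, 13.12, 13.17, 13.22 and 13.32 on the no-dox arrays (0.13 ± 0.05, adjusted p = 0.748). Its values stood apart within each slide but not across them. The largest member change was that of Sdhd, of complex II, at 0.39 ± 0.19 (adjusted p = 0.854), and the lowest was -0.08.

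The median level of these subunits, set against the midpoint of each slide, was 0.07, 0.00, 0.03 and 0.01 on the dox arrays, against -0.05, -0.07, -0.02, 0.00 and -0.03 on the no-dox arrays. Dox arrays were higher within each slide, on slide 2 by a small margin over E2 replicate 2. Between 36 and 48 of the 57 were positive under every alternative with the same filter on dim probes, the fewest on slide 2 alone. On slide 1 the dox arrays also had lower deposited median signals, 132.2 and 131.8, against 149.9 and 139.8 on the vehicle arrays, and on slide 2 they were 162.9 and 164.1, against 172.1, 164.7 and 157.9 on the E2 arrays. The part of this signal difference in the small list shifts was not tested.

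Other lists for protein and energy machinery had smaller medians. Of 26 proteasome subunits, 20 were positive with a median of 0.03, and Psmd8, of the regulatory particle, had 0.18 ± 0.05 (adjusted p = 0.471) with 0.19 and 0.17 on slides 1 and 2. Of 44 mitochondrial ribosomal proteins, 29 were positive (median 0.02, with 0.05 on slide 1 and -0.0040 on slide 2). Of 28 cytosolic ribosomal proteins, 18 were positive with a median of 0.01. None of these genes passed. Of 20 glycolysis and hypoxia genes, 7 were positive and 13 negative (median -0.06). The enzymes Pkm and Gapdh stood apart downward on both slides, against 1.75% of all genes, and Gapdh had -0.11 ± 0.05 (adjusted p = 0.815).

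Lists of collagen and growth factor genes held more negative than positive changes. Of 17 collagen chains, 14 were negative (median -0.04, with -0.10 on slide 1 and -0.02 on slide 2). Of 18 collagen folding and crosslinking genes, 16 were negative (median -0.05). Serpinh1, the collagen chaperone HSP47, had -0.14 ± 0.06 (adjusted p = 0.815) and Pcolce, which enhances procollagen cleavage, had -0.12 ± 0.05 (adjusted p = 0.827). Pcolce had -0.24 on slide 1 and -0.03 on slide 2. Without dox replicate 1 the collagen folding list had 11 of 18 negative and a median of -0.02. Of 19 FGF and IGF signalling genes, 15 were negative (median -0.08). Igfbp5 and Etv5, a transcription factor induced by FGF, stood apart downward on both slides, against 1.75% of all genes. Etv5 had 8.56, 8.64, 8.50 and 8.55 on the dox arrays, against 8.86, 9.04, 8.68, 8.76 and 8.81 on the no-dox arrays (-0.28 ± 0.09, adjusted p = 0.549). None of the members of these 3 lists passed.

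Some lists had unlike medians on the 2 slides. The 25 cell cycle genes had a median of -0.11 on slide 1 and -0.00096 on slide 2, and none had an unadjusted p under 0.05. The 16 immediate early genes, which respond within minutes to stimulation, had medians of -0.17 on slide 1 and 0.06 on slide 2. On slide 1 that value rested on dox replicate 2: the list's median level was 0.14 and -0.22 on dox replicates 1 and 2, against 0.14 and 0.07 on the vehicle arrays. The pooled median of -0.06 was 0.06 without dox replicate 2. The pooled median of the cell cycle list, -0.05, was -0.02 without dox replicate 1 and -0.01 without dox replicate 2. The differences between slides were not tested as lists. Of 13 factors that regulate osteoclasts, 5 were positive and 0 passed (lowest adjusted p = 0.854). Of 28 BMP and TGF-beta pathway genes, 13 were positive, and of 14 Wnt pathway genes, 8 were positive, with 0 past the threshold in either list.

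**Figure D4:**
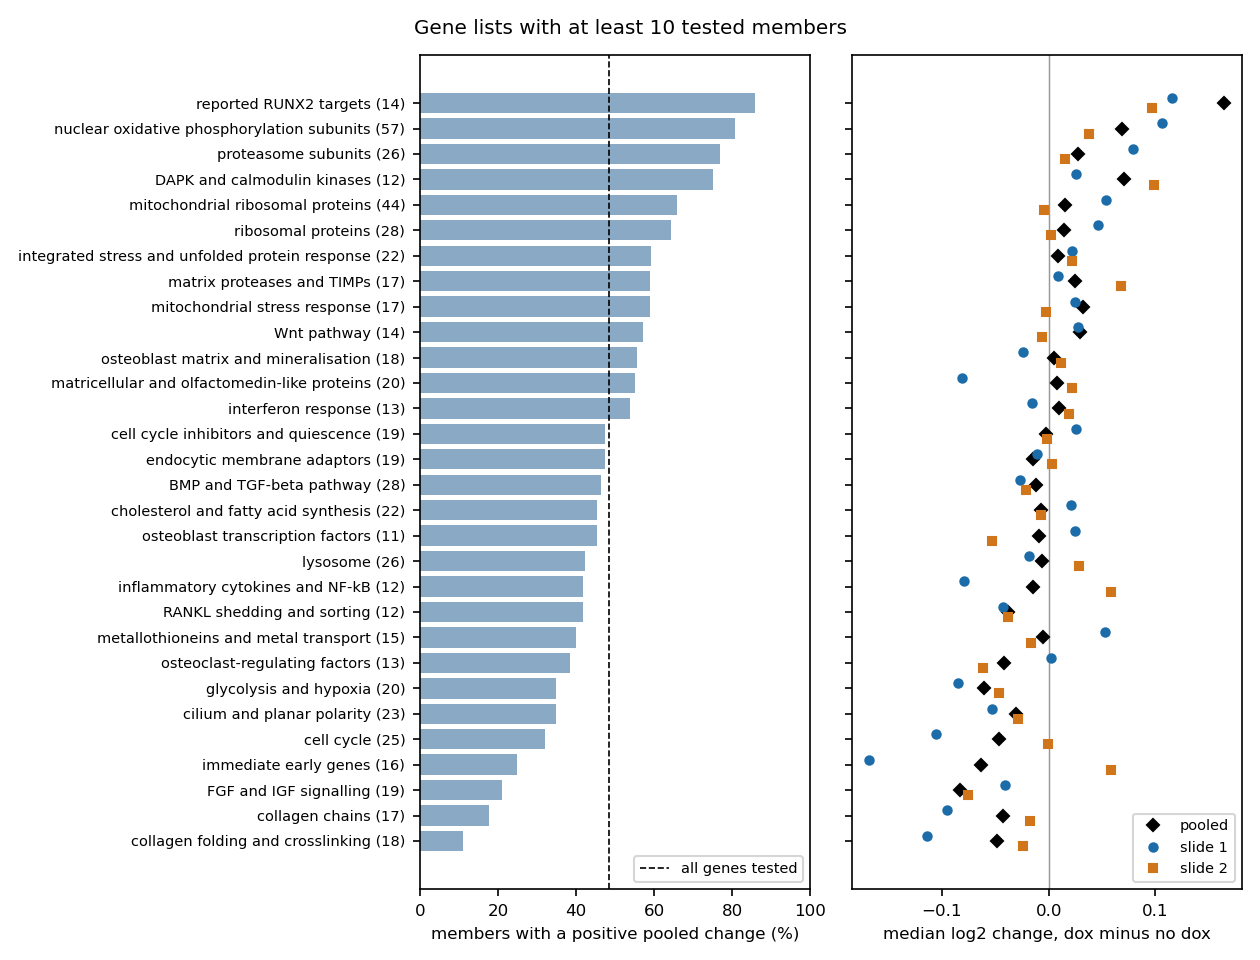
For each gene list with at least 10 tested members (number in brackets), the share of members with a positive pooled change (left, bars from 0, dashed line at 48.5% for all genes) and the median log2 change (right) pooled and on each slide. Reported RUNX2 targets (85.7%) and nuclear oxidative phosphorylation subunits (80.7%) have the highest shares. Collagen folding and crosslinking has the lowest, with 2 of 18 members positive. The RUNX2 targets include Bglap and Bglap2, which were tested only through their dox arrays.

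**Figure D5:**
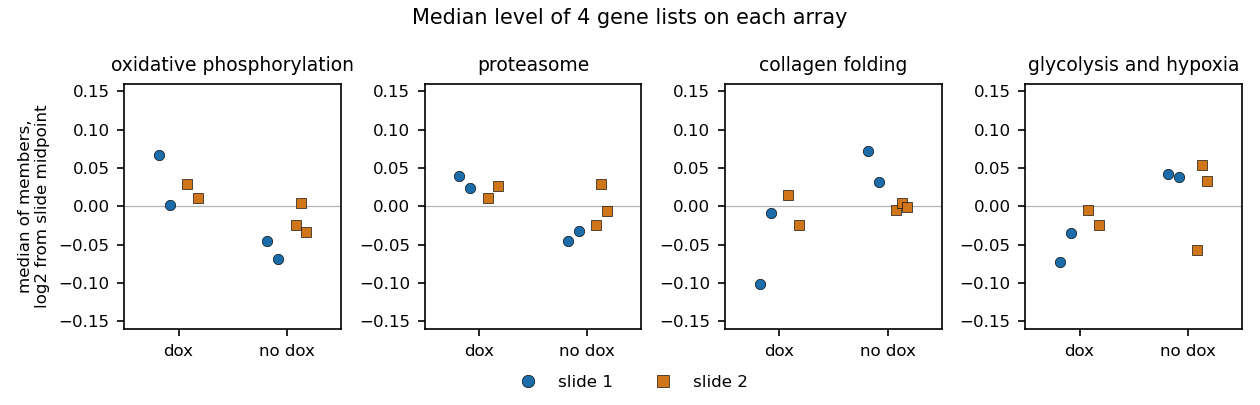
Median log2 level of the members of 4 lists, chosen after their values were seen, on each array relative to the midpoint of its slide, dox arrays left and no-dox arrays right in each panel, circles for slide 1 and squares for slide 2. Oxidative phosphorylation subunits lie higher on the dox arrays within each slide, and the other 3 lists overlap between dox and E2 arrays on slide 2.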

How the data were processed

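Total RNA from 9 samples of transduced osteoblasts was labelled as biotinylated cRNA and hybridised to Illumina mouse arrays, per the labels' protocols. Per the file headers, each of 25697 probes has an average signal and a detection p-value per array in the deposited table. The deposited signals are linear intensities, neither background-subtracted nor scaled between arrays, and per the submitters' processing notes GenomeStudio 2011.1 was used. A second deposited table, of intensity values scaled by the authors, served as an alternative. No source used here names the genome build behind the probes. Symbols were updated from the RefSeq table of GRCm38.p6.

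Signals were background-corrected from the detection p-values, quantile normalised and log2-transformed by neqc with offset 16 (limma 3.58.1, R 4.3.3). The offset shrinks changes of dim probes, and quantile normalisation would hide a shift of most genes. A probe entered if its detection p was under 0.05 on 2 or more arrays (12912 probes), and the brightest probe stood for a gene (9490 genes). All 9 arrays were fitted with slide and dox (6 residual degrees of freedom) and an intensity trend, and p-values from two-sided moderated tests were adjusted over all genes. A fit with a mean per group gave the change on each slide and the difference. The fit was tested on simulated data. Named genes were the RUNX family and bone genes, all genes past the threshold, the 10 higher and 10 lower genes not past it with the smallest p among those separated on both slides, and 2 members of each list, of which some are not reported here. The 38 pathway lists and 10 cell type lists, the comparison and these rules were chosen with earlier results of these data known. Replicate numbers were not used as pairs in the main fit. Deviations of same-numbered arrays from their group means correlated at -0.06 on slide 1 and at 0.03 and -0.10 on slide 2. With 2 dox arrays per slide these deviations mirror each other, so the correlations cannot decide whether arrays were paired. Promoter windows were searched in Python 3.11.15 and aligned with Biopython 1.88, and figures were drawn with matplotlib 3.10.9.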

Additional observations from a re-analysis of the deposited data

Results flagged for a closer look

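For 3 genes past the threshold, 1 of the 5 no-dox arrays stood far from the other 4 after slide means were removed. For Dapk2 this was vehicle replicate 1, whose gap to the nearest array was 0.828 of the range. For Pacsin1 it was E2 replicate 1, with a gap of 0.813 of the range, and there all 5 no-dox values were below background. For Invs it was vehicle replicate 2, with a gap of 0.775 of the range. The limit for 5 arrays is 0.71, and chance flags about 1 in 20 groups. Leaving out vehicle replicate 2 ended the Invs call, while the Dapk2 and Pacsin1 calls were kept without any single array.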

How the results depend on the processing

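Of the 261 pairs of a gene past the threshold and an alternative, 261 kept their direction and 211 stayed past the threshold. With the authors' scaled table, cyclic loess, an offset of 50, the mean of probes, a robust prior and array weights, all 11 genes stayed past the threshold. Serping1, Olfml3, Invs and Rgcc were the genes lost most often. Without the intensity trend, 6 of the 11 stayed past the threshold, and Alpl, Invs, Olfml3, Rgcc and Serping1 were lost. Slide 1 alone lost these and also Sp7, Bglap2 and Gzme. The number of genes that rose was 3 on slide 1 alone and 7 to 13 when 1 array was left out. The number that fell was 0 with detection on all 9 arrays (Bglap2, Invs and Pacsin1 were then not tested), without the intensity trend, without the slide term and on either slide alone, 2 with array weights, and 0 to 2 when 1 array was left out. Whether the replicate numbers mark pairs could not be decided. With the replicate block, 9 rose and 1 fell: Invs and Serping1 were lost and Unc5b was added. For the difference between slides, 2 genes passed with the block, against 0 without it. Bglap passed with the authors' table, without background correction, without the detection filter, without the intensity trend, with the robust prior, with array weights and without dox replicate 1.

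Reversed signs occurred only among named genes that had not passed. Runx1 was 0.0075 on slide 2 alone and, when 1 array was left out, ran from -0.129 to 0.0278 (0.0024 without dox replicate 1), and Cbfb from -0.0160 to 0.0773 (-0.0017 without vehicle replicate 2). Spp1 was -0.0035 with array weights, -0.0875 on slide 2 alone, and from -0.0484 (without vehicle replicate 1) to 0.0889 when 1 array was left out, below 0 for 5 of the arrays. Wnt5a was 0.0166 and Rara 0.29 on slide 1 alone, Fasn was -0.0821 and Sc5d 0.0070 on slide 2 alone, and Klf6 was 0.0201 with the mean of probes. When 1 array was left out, Rara ran from -0.321 to 0.102 (0.0084 without E2 replicate 2). The cause of these changes was not tested. The 4 dox and 5 no-dox arrays and a median SE of 0.097 limit what changes of this size can show. Dim probes such as that of Invs have only bounds, and Bglap has no measured size.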
